A study of Mus musculus with 8 samples.

Results

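DNA is copied once per cell division, and the genes that do this work were followed here in hematopoietic stem cells (HSCs) of mice with hemolytic anemia. The set held 51 genes of DNA replication and S phase, chosen by gene symbol, among 15142 genes listed in all 3 of the deposited tables. The rule that chose them uses no measured value, although it was set with earlier results of these data known, and all 51 had a row in each table. They fell into 9 groups by their step in replication: origin licensing (11 genes), activation of the helicase (6), polymerases and primase (8), the sliding clamp and its loader (5), binding of single-stranded DNA and processing of Okazaki fragments (6), nucleotide supply (5), chromatin assembly and histone mRNA (4), fork protection and S-phase control (3), and regulators of the passage from G1 to S (3). By Entrez gene ID, all 51 matched a protein-coding gene of the RefSeq annotation of GRCm38.p6, on 16 chromosomes.

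RNA from sorted HSCs was measured in 8 libraries of 3 groups, made from wild-type C57BL/6 mice aged 8 to 12 weeks. Control BM HSCs (3 libraries) came from bone marrow of mice whose labels give the treatment as PBS, and which the text of the study calls untreated. PHZ BM HSCs (3 libraries, marrow) and PHZ SP HSCs (2 libraries, spleen) came from mice given phenylhydrazine, which destroys red blood cells, at 60 mg/kg in 2 injections, and were sorted 3 days after the last injection. HSCs were sorted from the lineage-negative, Sca-1-positive, c-kit-positive fraction as CD150-positive cells with little or no CD48. No spleen HSCs from mice without PHZ entered the comparisons, so that in each comparison of PHZ SP HSCs with control BM HSCs treatment and tissue cannot be told apart. The sample labels do not say whether the libraries of a group came from separate mice, and the study states in general that its replicates are separate animals without giving a number for the sequenced libraries. The p-values measure the spread between libraries, which may be partly technical. The marrow columns of the tables are headed WBM, whereas the sample titles say BM HSC.

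The origin recognition complex, Cdc6 and Cdt1 load the ring-shaped MCM2-7 helicase on DNA in G1, and geminin (Gmnn) later binds Cdt1 and prevents a second round of loading. At the start of S phase, Cdc45 and the GINS complex join MCM2-7 to form the active helicase, primase and DNA polymerase alpha lay down the first nucleotides, and polymerases delta and epsilon extend them while held on DNA by the PCNA clamp. Many of these genes are transcribed under E2F transcription factors as cells pass from G1 to S, and most HSCs in undisturbed adult marrow are quiescent. In RNA from a pool of sorted cells, fewer cells that express a gene cannot be told apart from less RNA per cell.

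Depth, as reads worked back from the deposited values, ran from 8216626 to 13201359 per library, of which the ribosomal RNA precursor Rn45s took 43.3% to 48.6%. The 12 HSC identity genes summed to between 440.4 and 591.5 FPKM in the 8 libraries. FPKM is fragments per kilobase, a level per length that is also scaled for depth. None of the 12 identity genes passed the test in any comparison. In PHZ SP against control BM HSCs, however, 6 of the 12 had limma p under 0.05 without adjustment, against 15.8% of all genes. The lowest limma adjusted p there was 0.058. Both spleen libraries were above all control libraries for 5 of the 12 and below for 2. In PHZ SP against PHZ BM HSCs 4 of the 12 had limma p under 0.05 without adjustment, and in PHZ BM against control BM HSCs 1. Among markers of other cells, the 15 erythroid genes in the tables summed to 1528.6 and 1656.2 FPKM in PHZ SP HSCs and to between 586.2 and 760.4 FPKM in the 6 marrow libraries. The 9 neutrophil genes summed to 1412.9 and 1800.1 FPKM in PHZ SP HSCs and to 1055.9 FPKM in PHZ BM HSC replicate 3, against 429.3 to 737.1 FPKM in the other 5 libraries. All genes of these 3 lists reached 1 FPKM in some library, whereas Adgre1, Csf1r and Marco of the 10 macrophage genes, Ebf1, Pax5 and Vpreb1 of the 8 B cell genes, Gp1bb of the 7 megakaryocyte genes, and Ncr1, Prf1, Cd3e, Cd3g, Cd8a and Il2rb of the 12 NK and T cell genes stayed under 1 FPKM in each library. In PHZ BM HSCs the 10 immediate early genes summed to between 830.3 and 1045.7 FPKM, against 106.4 to 138.9 FPKM in control BM HSCs and 271.3 and 312.9 FPKM in PHZ SP HSCs. Of the 2 NK and T cell genes tested, Klrb1c was higher in PHZ SP HSCs than in control BM HSCs (3.19 on the log2 scale, limma adjusted p = 0.00087) and than in PHZ BM HSCs (2.30, limma adjusted p = 0.0048), whereas Nkg7 did not pass (-0.26 and -0.36). The 3 B cell genes tested had differences above 0 in both comparisons, with medians of 1.19 and 0.97, and none passed. The 10 macrophage genes summed to 39.8 and 61.6 FPKM in PHZ SP HSCs and to between 5.36 and 21.1 FPKM in the marrow libraries, and 2 of 6 megakaryocyte genes tested were lower in PHZ BM than in control BM HSCs. The part of these differences in the results below was not tested.

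The promoter sequences of several members are given first, since a run of letters that E2F factors are known to prefer recurs in this set. Each sequence is the 250 bases before the annotated edge of the gene in RefSeq (GRCm38.p6, the patch release of mm10), written 5′ to 3′ along the gene, and capitals mark the letters TTGGCGC or TTCCCGC or TTCGCGC or else TTGCCGC, an E2F core, on either strand. Rrm2, Rrm1, Prim1 and Rpa2 are shown because they had such letters and were lower in PHZ BM HSCs than in control BM HSCs by the test given below. Mcm6 had the letters and did not pass that test, and Ccne1, which had a difference near 0 in it, did not have them in these bases.
Rrm2, chr12:24708004-24708253, plus strand: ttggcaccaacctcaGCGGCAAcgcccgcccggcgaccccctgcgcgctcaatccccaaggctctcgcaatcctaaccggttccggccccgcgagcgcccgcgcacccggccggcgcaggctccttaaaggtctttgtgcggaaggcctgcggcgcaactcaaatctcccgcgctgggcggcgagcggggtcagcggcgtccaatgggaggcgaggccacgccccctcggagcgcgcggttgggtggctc
Rrm1, chr7:102441445-102441694, plus strand: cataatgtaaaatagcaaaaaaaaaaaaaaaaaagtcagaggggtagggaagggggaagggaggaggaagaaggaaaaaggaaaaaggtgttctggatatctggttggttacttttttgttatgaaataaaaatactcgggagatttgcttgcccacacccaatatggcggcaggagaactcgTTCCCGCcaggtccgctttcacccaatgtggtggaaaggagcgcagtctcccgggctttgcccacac
Prim1, chr10:128014965-128015214, plus strand: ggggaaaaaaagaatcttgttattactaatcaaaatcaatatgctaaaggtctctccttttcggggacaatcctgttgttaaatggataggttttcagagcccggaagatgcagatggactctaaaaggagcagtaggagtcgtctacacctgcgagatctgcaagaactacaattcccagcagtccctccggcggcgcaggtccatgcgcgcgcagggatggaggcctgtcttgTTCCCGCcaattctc
Rpa2, chr4:132768110-132768359, plus strand: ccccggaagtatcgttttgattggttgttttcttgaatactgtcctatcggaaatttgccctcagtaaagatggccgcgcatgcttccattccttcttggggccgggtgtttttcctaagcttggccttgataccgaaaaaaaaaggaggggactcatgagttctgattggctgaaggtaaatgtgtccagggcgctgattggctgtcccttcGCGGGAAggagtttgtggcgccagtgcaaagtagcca
Mcm6, chr1:128359706-128359955, minus strand: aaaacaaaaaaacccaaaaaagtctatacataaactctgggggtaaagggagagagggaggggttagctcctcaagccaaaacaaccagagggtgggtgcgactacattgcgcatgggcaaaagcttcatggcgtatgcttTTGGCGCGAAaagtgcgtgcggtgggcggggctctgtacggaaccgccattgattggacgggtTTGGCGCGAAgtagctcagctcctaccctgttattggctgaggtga
Ccne1, chr7:38107491-38107740, minus strand: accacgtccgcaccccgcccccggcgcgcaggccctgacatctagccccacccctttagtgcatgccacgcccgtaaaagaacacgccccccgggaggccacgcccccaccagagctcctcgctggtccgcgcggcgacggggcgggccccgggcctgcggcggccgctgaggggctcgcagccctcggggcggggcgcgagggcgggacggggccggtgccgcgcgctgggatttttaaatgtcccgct

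The stretch of Mcm6, a helicase subunit, held 4 matches, which lie in 2 overlapping pairs, the nearest beginning 43 bases before the start. Prim1, the catalytic primase subunit, Rpa2, a subunit of the single-strand binding protein, and Rrm1 and Rrm2, the subunits of ribonucleotide reductase, held 1 each, at 15, 37, 67 and 235 bases before the start. Over windows of 300 bases, 250 before and 50 after the start, RefSeq promoters were found for 40 of the 51 genes, in 45 windows. The start was the edge of the annotated gene in 26 windows and lay inside it in the other 19, so that the bases counted as upstream there are partly or wholly within the gene. Of these 40 genes, 24 (60%) held an E2F core on either strand, against 19.7% of the 9108 tested genes with a window and 10.9% of all 27025 genes with a promoter. A second motif, the CHR (TTTGAA or TTCGAA), which is known from promoters of mitosis genes, was found in 20% of the 40 genes and in 72.7% of 22 mitosis genes. It was in 16.7% of the tested genes and in 21.7% of all genes. The CCAAT box (CCAAT) was in 62.5% of the replication genes, 77.3% of the mitosis genes, 43.3% of the tested genes and 41.1% of all genes. The median share of G and C in a window was 61.3% for the replication genes, 60.7% for the tested genes and 52.7% for all genes. Matches on opposite strands that overlap were counted separately: the members' windows held 45 E2F matches, 31 of them beginning within 100 bases of the start, and 11 genes held 2 or more.

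**Figure D1:**
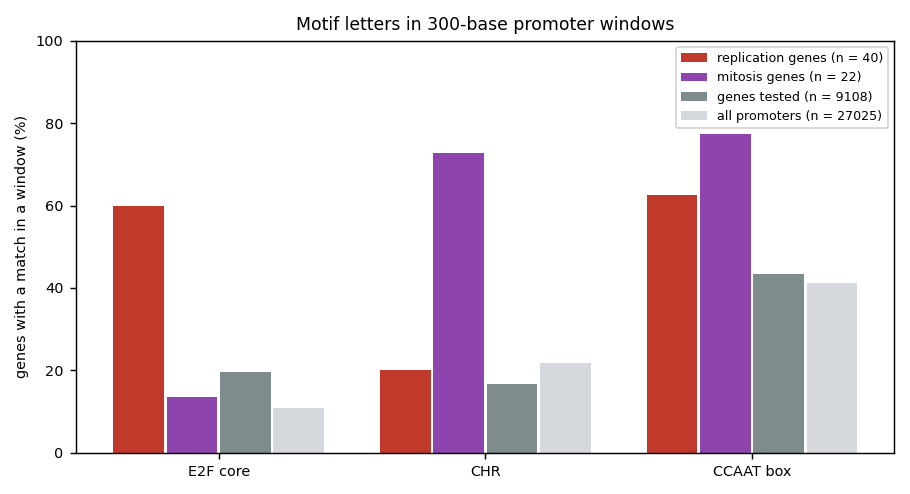
Share of genes (%) with at least 1 match to each of 3 motifs, on either strand, in a window from 250 bases before to 50 bases after the RefSeq start. Bars stand for the replication genes, mitosis genes, genes tested and all genes with a promoter. The E2F core is in 60% of the replication genes and 13.6% of the mitosis genes, and the CHR in 20% and 72.7%.

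On the log2(FPKM + 1) scale, the median difference between PHZ BM and control BM HSCs was -0.89 over the 24 genes with an E2F core and -0.87 over the 16 genes without it. By the test given below, 9 of the 24 and 3 of the 16 were lower in PHZ BM HSCs, and the core was in 75% of the 12 genes with a window that passed and in 53.6% of the 28 that did not. Between PHZ SP and PHZ BM HSCs the 2 medians were 0.73 and 0.73. A match is a description of the sequence, and no binding was measured.

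The first comparison asked how the replication genes of marrow HSCs stood 3 days after PHZ. The fitted difference between PHZ BM and control BM HSCs was below 0 for 49 of the 51 genes, against 48.8% of all genes tested, and the median was below 0 in all 9 steps of replication. Over the 51 genes it had a median of -0.88 on the log2(FPKM + 1) scale, against a median of 0.01 over all genes tested. Differences on this scale understate those of genes with low values. All 51 passed the filter on low values (at least 1 FPKM in at least 2 libraries), although Clspn reached 1 FPKM in control BM HSCs alone. In limma, with p-values adjusted over 11347 genes by Benjamini-Hochberg, 15 of the 51 fell and none rose. Of all genes tested, 2.74% passed in either direction, 1.26% fell and 1.48% rose. Without adjustment 35 of the 51 had p under 0.05, against 16.6% of all genes. For 33 genes every PHZ BM library was below every control library, which held for 11.7% of all genes, and for no member was every PHZ BM library above. The 51 genes summed to 849.9, 875.3 and 1102.4 FPKM in the control libraries and to 451.6, 477.2 and 662.0 FPKM in the PHZ BM libraries. The groups did not overlap, and the mean of the sum was 43.7% lower in PHZ BM HSCs.

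**Figure D2:**
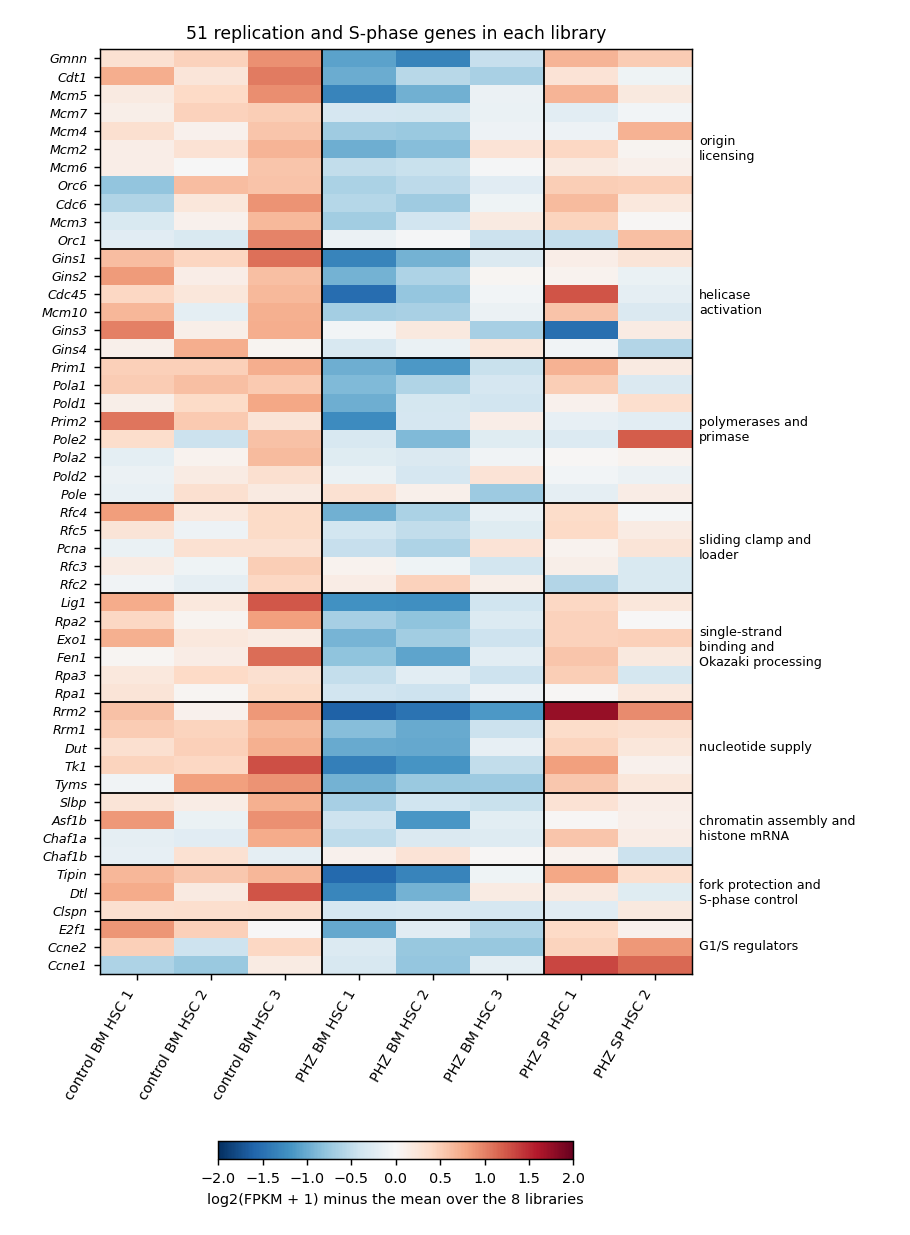
Each row is a gene and each column a library. Colour is log2(FPKM + 1) minus the gene's mean over the 8 libraries, from blue (below the mean) to red (above), and rows are grouped by step. The PHZ BM columns are mostly blue, and 33 of the 51 genes have all 3 PHZ BM libraries below all 3 control libraries.

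Nucleotide supply was the step in which each measured gene fell. These enzymes make the deoxynucleotides that polymerases consume, and their differences ranged from -1.92 to -1.23, with a median of -1.36. Rrm2 encodes the small subunit of ribonucleotide reductase, which forms deoxynucleotides from ribonucleotides and is made mainly in S phase. It lies at chr12:24708254-24714146 (GRCm38.p6). Its level was 16.2, 11.2 and 20.1 FPKM in control BM HSCs and 2.75, 3.15 and 4.21 FPKM in PHZ BM HSCs. All 3 PHZ BM libraries were far below the lowest control library, and the mean was 78.7% lower, with a log2 difference of -1.92 (SE 0.27, limma adjusted p = 0.0043). Rrm1, the large subunit, was at 24.5, 23.5 and 27.0 FPKM in control BM HSCs and at 9.01, 7.96 and 12.4 FPKM in PHZ BM HSCs. The groups were again apart, by -1.29 (SE 0.19, limma adjusted p = 0.0051).

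Tk1, thymidine kinase, which salvages thymidine, was at 7.40, 7.28 and 14.1 FPKM in control BM HSCs and 1.39, 1.74 and 3.39 FPKM in PHZ BM HSCs (-1.73, SE 0.33, limma adjusted p = 0.018). Tyms, which makes thymidylate, was at 6.25, 12.5 and 13.2 FPKM and at 2.94, 3.53 and 3.57 FPKM (-1.36, SE 0.27, limma adjusted p = 0.023). In both genes the highest PHZ BM library was below the lowest control library. Dut, the dUTPase that keeps uracil out of DNA, was the most abundant of the 5 genes by FPKM, at 56.2, 62.7 and 73.4 FPKM in control BM HSCs and 21.8, 21.5 and 39.9 FPKM in PHZ BM HSCs (-1.23, SE 0.23, limma adjusted p = 0.015). The third PHZ BM library was the highest of its group in all 5 genes.

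In origin licensing 3 of 11 genes fell and all 11 differences were below 0 (median -0.63). Gmnn, the inhibitor of licensing, was at 26.2, 29.4 and 40.3 FPKM in control BM HSCs and at 9.44, 7.77 and 14.99 FPKM in PHZ BM HSCs. The groups did not overlap, and the mean was 66.4% lower (-1.51, SE 0.24, limma adjusted p = 0.0075). Cdt1, the loading factor that geminin binds, was at 14.4, 10.1 and 18.2 FPKM and at 3.67, 5.32 and 4.95 FPKM (-1.41, SE 0.25, limma adjusted p = 0.012). The ratio of Gmnn to Cdt1 within a library was 1.81, 2.91 and 2.21 in control BM HSCs and 2.57, 1.46 and 3.03 in PHZ BM HSCs, so that the ranges of the ratio overlapped while both levels were apart. In PHZ SP HSCs the ratio was 3.37 and 3.87, above every marrow library.

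The 6 subunits of the MCM2-7 ring were among the more abundant members. Summed, they reached between 179.9 and 268.1 FPKM in control BM HSCs and between 106 and 174.1 FPKM in PHZ BM HSCs, where Mcm6 was the highest subunit and Mcm4 the lowest in both groups. Only Mcm5 of the 6 passed the test. It was at 23.5, 27.5 and 40.5 FPKM in control BM HSCs and at 7.667, 10.13 and 19.0025 FPKM in PHZ BM HSCs, again without overlap (-1.30, SE 0.31, limma adjusted p = 0.048). The other 5 subunits had differences of -0.44 (Mcm3) to -0.88 (Mcm2). The third PHZ BM library stood at 27.7 FPKM for Mcm2 and 41.3 FPKM for Mcm3, within the range of the control libraries for both genes. The origin recognition subunits Orc1 (-0.35) and Orc6 (-0.59) and the loader Cdc6 (-0.62) did not pass, and each had control libraries that differed severalfold, from 0.54 to 2.77 FPKM in Orc1.

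Helicase activation gave 1 gene that fell of 6, with a median of -0.96. Gins1 was at 7.15, 6.20 and 10.47 FPKM in control BM HSCs and at 1.13, 1.76 and 3.37 FPKM in PHZ BM HSCs, a mean 73.7% lower (-1.57, SE 0.30, limma adjusted p = 0.017). Gins2, another subunit of the 4-part GINS complex, was at 5.77, 3.13 and 4.71 FPKM and at 0.954, 1.45 and 2.85 FPKM. The third PHZ BM library came close to the lowest control library, and the difference of -1.04 (SE 0.30) did not pass (limma adjusted p = 0.10). Gins4 stood apart from its partners in level: its mean was 40.6 FPKM in control BM HSCs and 30.9 FPKM in PHZ BM HSCs, and its difference of -0.37 did not pass. The Gins4 to Gins1 ratio was therefore 4.83, 8.66 and 3.21 in control BM HSCs and 22.7, 16.6 and 11.2 in PHZ BM HSCs, without overlap. It was 6.32 and 3.91 in PHZ SP HSCs, within the control range. Cdc45 (-1.21), Mcm10 (-0.87) and Gins3 (-0.79) did not pass, and Mcm10 rested on 3, 4 and 53 reads in the PHZ BM libraries.

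Among polymerases and primase, 2 of 8 genes fell, and all 8 differences were below 0 (median -0.82). Prim1 was at 12.9, 12.8 and 15.4 FPKM in control BM HSCs and at 4.04, 3.47 and 6.30 FPKM in PHZ BM HSCs (-1.42, SE 0.24, limma adjusted p = 0.010). Pola1, the catalytic subunit of polymerase alpha, was at 12.5, 13.4 and 12.7 FPKM and at 4.17, 5.29 and 6.503 FPKM (-1.15, SE 0.24, limma adjusted p = 0.030). The control libraries of both genes were close together, and the PHZ BM libraries lay well below them. The 4 genes of the polymerase alpha-primase complex, Pola1, Pola2, Prim1 and Prim2, summed to between 44.3 and 48.6 FPKM in control BM HSCs and between 15.5 and 27.2 FPKM in PHZ BM HSCs. None of the genes of the extending polymerases passed, and whether their differences were unlike each other was not tested. Pold1, the catalytic subunit of polymerase delta, had a difference of -0.997 (limma adjusted p = 0.060), whereas its partner Pold2 had -0.19 (95% interval -0.61 to 0.23) and Pole, the catalytic subunit of polymerase epsilon, -0.22 (-0.85 to 0.41), which became 0.094 without PHZ BM HSC replicate 3.

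The clamp and its loader had the median nearest 0 of the 9 steps (-0.43), with 1 gene of 5 that fell. Rfc4, a subunit of the RFC loader, was at 35.6, 22.9 and 26.0 FPKM in control BM HSCs and at 9.58, 12.3 and 17.5 FPKM in PHZ BM HSCs (-1.06, SE 0.24, limma adjusted p = 0.043). Rfc5, with 15.7, 12.1 and 17.3 FPKM and 9.82, 8.89 and 10.8 FPKM, did not pass although its libraries did not overlap (-0.55, SE 0.20, limma adjusted p = 0.17). Pcna, the clamp itself and a common marker of cycling cells, was at 44.4, 60.8 and 60.6 FPKM in control BM HSCs and 35.3, 31.4 and 59.0 FPKM in PHZ BM HSCs. Its groups overlapped through the third PHZ BM library, and the difference of -0.43 had a 95% interval of -0.93 to 0.07. Rfc2, also of the loader, was 1 of the 2 genes with a difference above 0: it was at 23.4, 21.7 and 33.1 FPKM in control BM HSCs and 27.4, 34.4 and 26.7 FPKM in PHZ BM HSCs (0.19, 95% interval -0.25 to 0.62). The other was Chaf1b, a subunit of the chromatin assembly factor CAF-1, at 18.6, 26.1 and 18.4 FPKM and at 22.3, 25.6 and 21.3 FPKM (0.14, -0.30 to 0.59). In both genes the groups overlapped.

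All 6 genes of single-strand binding and Okazaki processing had each PHZ BM library below each control library, and 2 of the 6 fell by the test (median -1.02). Lig1, the ligase that seals Okazaki fragments, was at 14.98, 10.1 and 21.6 FPKM in control BM HSCs and at 3.11, 3.07 and 6.23 FPKM in PHZ BM HSCs (-1.68, SE 0.30, limma adjusted p = 0.013). Rpa2, the middle subunit of the single-strand binding protein RPA, was at 32.6, 25.2 and 43.7 FPKM and at 15.04, 13.4 and 19.9 FPKM (-1.01, SE 0.23, limma adjusted p = 0.043). The other 4 had differences of -1.13 (the flap endonuclease Fen1), -1.04 (the exonuclease Exo1), -0.68 (Rpa3) and -0.53 (Rpa1), and did not pass.

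In chromatin assembly and histone mRNA no gene of 4 passed. Slbp, which binds the stem-loop of replication-dependent histone mRNAs, was at 12.3, 11.3 and 17.1 FPKM in control BM HSCs and at 6.00, 7.41 and 7.12 FPKM in PHZ BM HSCs. The groups were apart, and the difference was just outside the threshold (-0.88, SE 0.21, limma adjusted p = 0.052). Asf1b, a histone chaperone, was at 14.3, 6.58 and 14.7 FPKM and at 5.26, 2.73 and 6.19 FPKM (-1.14, SE 0.33, limma adjusted p = 0.095).

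Tipin, which with its partner Timeless steadies stalled forks, fell from 42.7, 39.4 and 42.7 FPKM in control BM HSCs to 8.42, 10.1 and 25.2 FPKM in PHZ BM HSCs (-1.61, SE 0.32, limma adjusted p = 0.022). The third PHZ BM library was well above the other 2 and still below the control libraries. Dtl, which targets Cdt1 for destruction in S phase, was at 4.77, 2.90 and 7.24 FPKM and at 0.405, 0.788 and 2.86 FPKM (-1.42, SE 0.40, limma adjusted p = 0.089). Clspn, the checkpoint adaptor claspin, was at 1.11 to 1.16 FPKM in control BM HSCs and at 0.332 to 0.355 FPKM in PHZ BM HSCs (-0.67, limma adjusted p = 0.24).

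Of the G1/S regulators, none of 3 passed. E2f1, an activating E2F factor, was at 5.77, 4.14 and 2.71 FPKM in control BM HSCs and at 0.816, 2.13 and 1.40 FPKM in PHZ BM HSCs, without overlap (-1.08, SE 0.30, limma adjusted p = 0.087). Ccne2, a cyclin that drives entry into S phase, was at 2.43, 0.854 and 2.27 FPKM and at 1.04, 0.457 and 0.465 FPKM, with overlap (-0.75, SE 0.31, limma adjusted p = 0.25). Ccne1, the other E cyclin, was at 0.769, 0.623 and 2.05 FPKM and at 1.18, 0.600 and 1.37 FPKM (-0.03, 95% interval -0.70 to 0.64). Its low counts, 15 to 70 reads in the 6 marrow libraries, limit what could be seen.

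**Figure D3:**
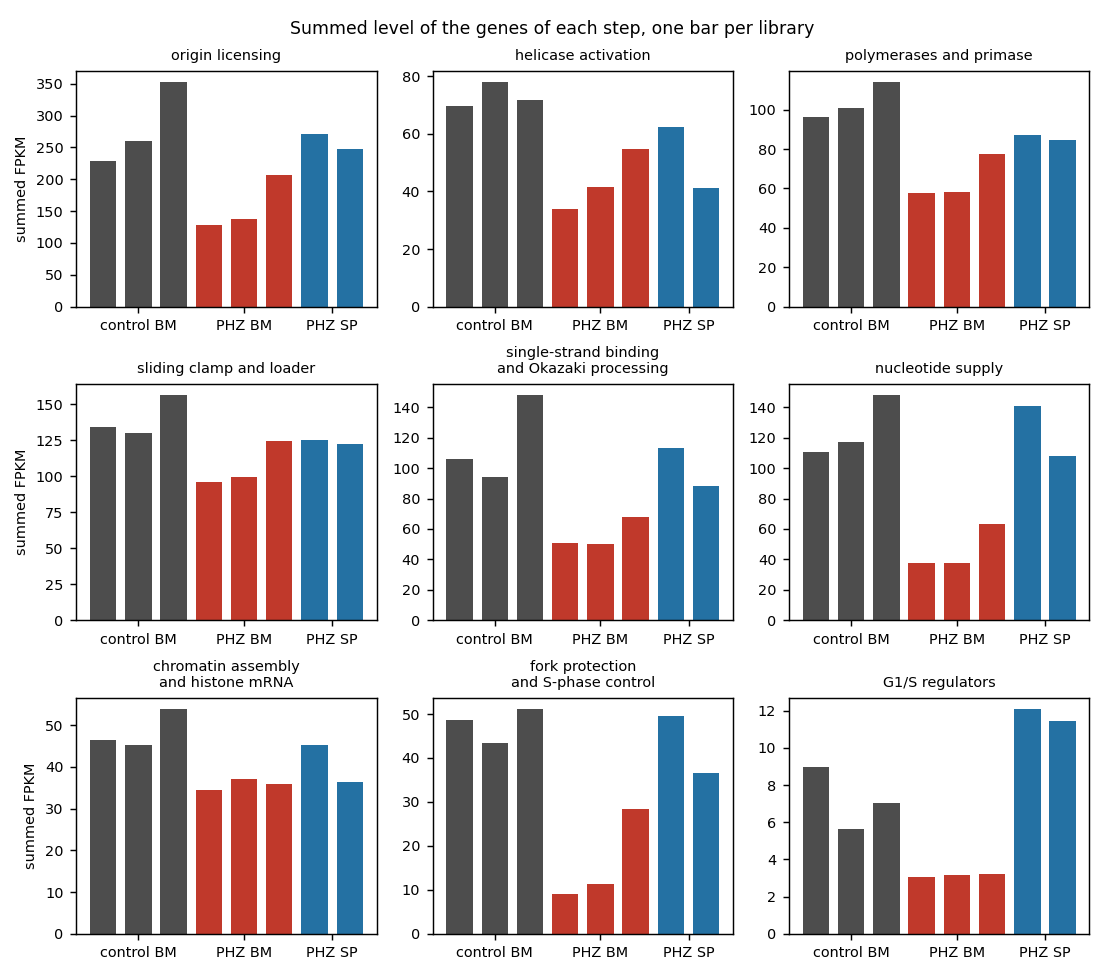
Each bar is the summed FPKM of the genes of a step in 1 library, for control BM (grey), PHZ BM (red) and PHZ SP HSCs (blue). In nucleotide supply the PHZ BM bars reach 37.9, 37.9 and 63.5 FPKM, below the control bars of 110.6 to 147.8 FPKM. In the G1/S regulators both PHZ SP bars, 12.1 and 11.5 FPKM, are the highest.

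Libraries of a group differed in the same sense over many members. PHZ BM HSC replicate 3 was the highest of its 3 libraries for 38 of the 51 genes (74.5%), against 39.7% of all genes tested, and control BM HSC replicate 3 was the highest of its 3 for 37 (72.5%), against 31.8%. Of the 2 spleen libraries, replicate 1 was the higher for 35 genes (68.6%), against 49.8%. The number of genes that fell in PHZ BM HSCs depended on single libraries: of the 15, 3 passed when PHZ BM HSC replicate 1 was left out, 4 with replicate 2 of that group left out and 14 with its replicate 3 left out. Leaving out control BM HSC replicate 1, 2 or 3 left 10, 10 and 5 of the 15, and leaving out either spleen library left 12. Calls over all genes fell too: from 311 of 11347 to 119 without PHZ BM HSC replicate 1, to 115 without replicate 2 of that group, to 306 without its replicate 3 and to 182, 242 and 226 when control BM HSC replicate 1, 2 or 3 was left out. Gmnn, Rrm1 and Rrm2 passed in all 8 fits that left out 1 library (highest adjusted p in limma 0.040, 0.034 and 0.024). The other 12 lost the call in at least 1 such fit, with adjusted p up to 0.18. PHZ BM HSC replicates 1 and 2 were closer to each other than other replicate pairs (correlation of log2 values 0.976, against 0.903 to 0.958), and with their mean taken as 1 library the same 3 genes passed, and 116 over all genes. The median over the 51 genes stayed between -1.06 and -0.73 in the fits without 1 library.

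**Figure D4:**
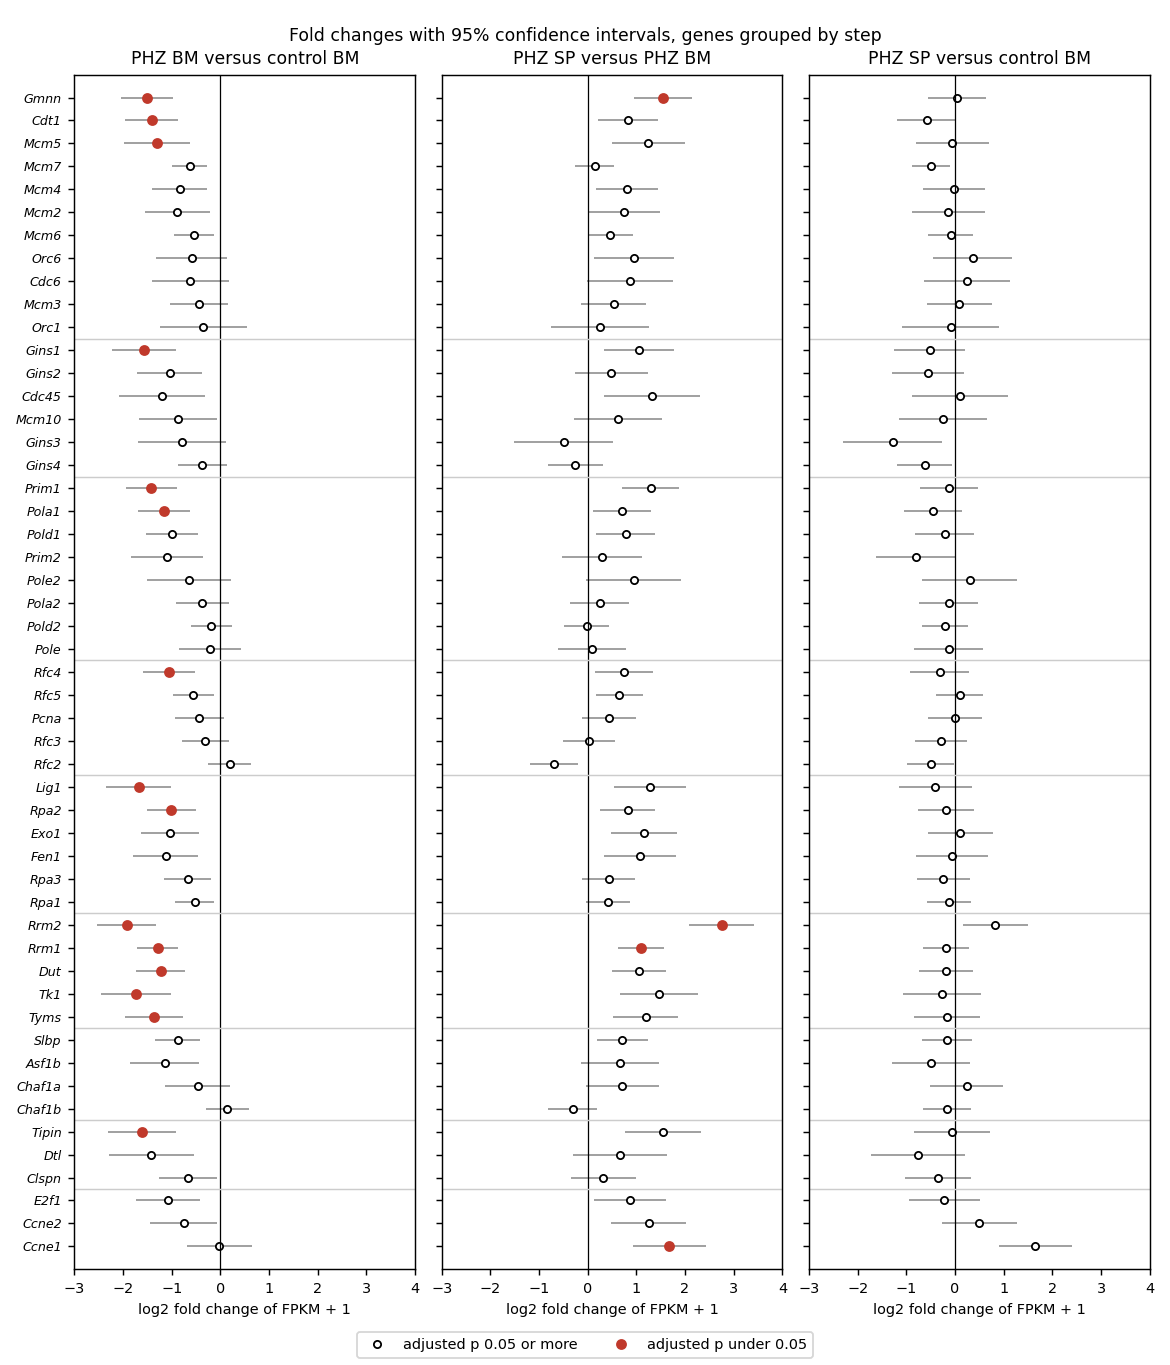
Fitted log2 differences of FPKM + 1 (points) with 95% confidence intervals (lines) for the 51 genes in 3 comparisons, grouped by step. Filled red points have a limma adjusted p under 0.05: 15 in PHZ BM versus control BM HSCs, all below 0, 4 in PHZ SP versus PHZ BM HSCs, all above 0, and 0 in PHZ SP versus control BM HSCs.

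The second comparison set spleen HSCs against marrow HSCs of the PHZ-treated mice. The fitted difference was above 0 for 46 of the 51 genes and below 0 for 5, against 51.8% of all genes tested below 0 (median 0.74, against -0.02 over all genes). In limma 4 genes rose, Rrm2, Gmnn, Rrm1 and Ccne1, and none fell. Of all genes tested, 0.978% passed in either direction, 0.608% rose and 0.37% fell. Without adjustment 28 had p under 0.05, against 13.5% of all genes. For 31 genes both PHZ SP libraries were above all 3 PHZ BM libraries, which held for 17.4% of all genes, and for Rfc2 alone both were below, at 16.0 and 19.8 FPKM (-0.69, limma adjusted p = 0.20). The 51 genes summed to 905.8 and 776.0 FPKM in PHZ SP HSCs. This comparison shares the PHZ BM libraries with the first, so that low values in those libraries enter both, and the erythroid and neutrophil marker sums given above were higher in the same 2 spleen libraries.

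Rrm2 had the largest rise of the members: it was at 37.6 and 21.1 FPKM in PHZ SP HSCs, 8.69-fold the PHZ BM mean (2.75, SE 0.31, limma adjusted p = 0.0039). Gmnn was at 34.4 and 30.2 FPKM (1.55, SE 0.27, limma adjusted p = 0.027), and Rrm1 at 22.2 and 21.3 FPKM (1.10, SE 0.21, limma adjusted p = 0.039). In each of these 3 genes both spleen libraries were above all PHZ BM libraries. Ccne1, at chr7:38097984-38107490 (GRCm38.p6), was at 5.88 and 5.05 FPKM, from 175 and 140 reads, against 0.600 to 1.37 FPKM in PHZ BM HSCs (1.67, SE 0.34, limma adjusted p = 0.046). Prim1, at 14.96 and 10.3 FPKM, was just outside the threshold (1.29, SE 0.27, limma adjusted p = 0.053). Next came Tipin, at 46.2 and 33.8 FPKM (1.54, limma adjusted p = 0.074), and Dut, at 60.8 and 52.1 FPKM (1.05, limma adjusted p = 0.081).

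With 1 spleen library left out the other is assumed to vary like the libraries of the other groups, and calls over all genes went from 111 to 7 without PHZ SP HSC replicate 1 and to 6 without PHZ SP HSC replicate 2, so that such fits say little about the members. Without PHZ SP HSC replicate 1 no member passed, and Rrm2 had a difference of 2.35 (limma adjusted p = 0.058). Rrm2 alone of the 4 passed when PHZ SP HSC replicate 2 or either of the first 2 marrow libraries of PHZ-treated mice was left out, and 7 members passed without PHZ BM HSC replicate 3, among them Rrm2, Gmnn and Rrm1 but not Ccne1 (limma adjusted p = 0.066). Over all genes, 20 and 30 were called with PHZ BM HSC replicate 1 or 2 left out, and 137 without replicate 3. Without control BM HSC replicate 3, which is in neither group compared and enters through the spread and the genes tested, Rrm1 lost its call (limma adjusted p = 0.058). Among the other fits, Gmnn and Ccne1 lost the call with voom, where 65 genes passed over all tested. Rrm1, Gmnn and Ccne1 lost it without the filter (62 over all genes), Ccne1 with a pseudocount of 0.1 (108) and Rrm1 in the fit of 2 groups (157). With the replicate number as a block all 4 passed, among 12 members and 112 genes.

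By step, the medians between PHZ SP and PHZ BM HSCs were 1.19 for nucleotide supply, where all 5 genes had both spleen libraries above all PHZ BM libraries, 0.94 for single-strand binding and Okazaki processing, 0.81 for origin licensing, 0.56 for helicase activation, 0.50 for polymerases and primase, 0.43 for the clamp and its loader, 0.68 for chromatin assembly, 0.66 for fork protection and 1.25 for the G1/S regulators. The 5 genes with differences below 0 were Rfc2, Gins3 (-0.49), Chaf1b (-0.31), Gins4 (-0.25) and Pold2 (-0.02), of which Gins3, Gins4 and Pold2 were above 0 in at least 1 other fit (up to 0.35, 0.0038 and 0.15). Of the helicase genes, Cdc45 was at 21.7 and 7.38 FPKM in the spleen libraries, the first above and the second within the PHZ BM range of 2.33 to 8.14 FPKM. Gins3 was at 0.759 and 4.61 FPKM, the first below and the second within the PHZ BM range of 2.14 to 4.71 FPKM.

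**Figure D5:**
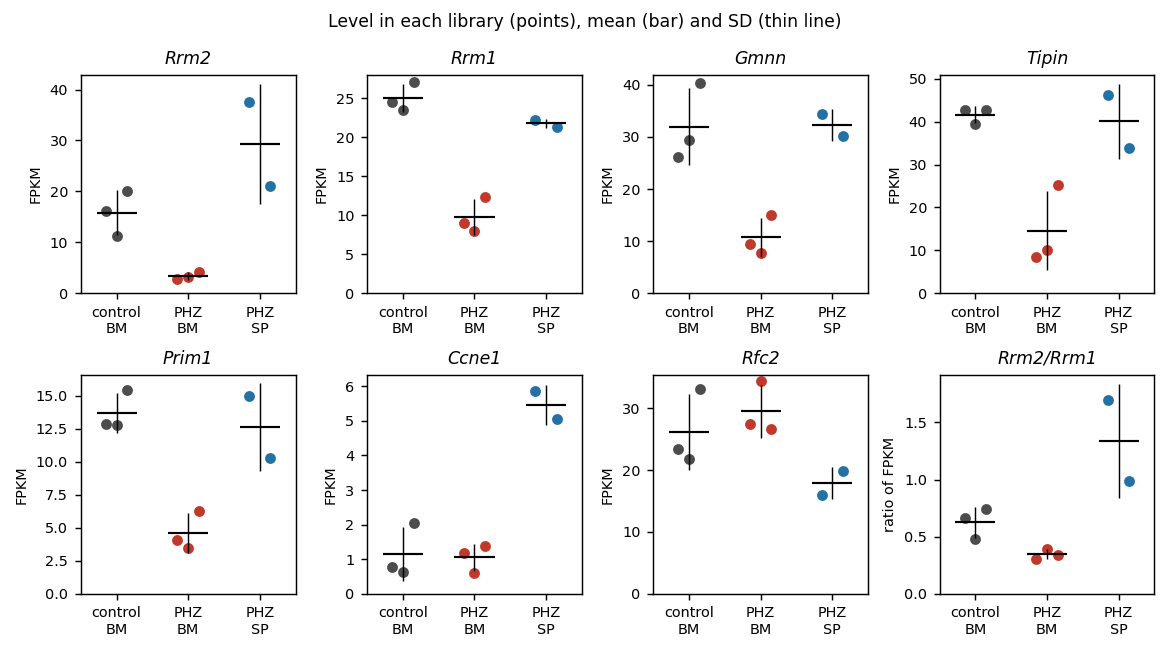
Points are libraries, thick bars group means and thin lines SD, for FPKM of 7 genes and for the Rrm2 to Rrm1 ratio (last panel). Rrm2, Rrm1, Gmnn, Tipin and Prim1 are lowest in PHZ BM HSCs, Ccne1 is highest in PHZ SP HSCs, and the Rrm2 to Rrm1 ratio is 0.306 to 0.396 in PHZ BM HSCs and 1.69 and 0.987 in PHZ SP HSCs.

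The 2 subunits of ribonucleotide reductase did not move in proportion. The ratio of Rrm2 to Rrm1 FPKM was 0.662, 0.477 and 0.743 in control BM HSCs, 0.306, 0.396 and 0.340 in PHZ BM HSCs, and 1.69 and 0.987 in PHZ SP HSCs, and the 3 ranges did not overlap. The ratio of Ccne1 to Ccne2 was 0.316, 0.729 and 0.901 in control BM HSCs, 1.14, 1.31 and 2.94 in PHZ BM HSCs and 2.497 and 1.44 in PHZ SP HSCs, where both PHZ groups were above the control range and overlapped with each other. These ratios, with those of Gmnn to Cdt1 and Gins4 to Gins1, were chosen after the values had been seen and are given without a test.

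The third comparison set spleen HSCs of PHZ-treated mice against control marrow HSCs. In limma none of the 51 genes passed, 6 had p under 0.05 without adjustment, against 15.8% of all genes, and voom on the recovered reads called none. Of all genes tested, 0.758% passed, 0.626% in the direction of higher and 0.132% of lower levels. The median was -0.17 (0.00 over all genes), with 38 differences below 0 and 13 above, against 50.1% of all genes below 0. These values rested on single libraries: without control BM HSC replicate 3 the median was -0.04, with 27 of 50 differences below 0, without PHZ SP HSC replicate 2 it was -0.06, with 29 of 50, and without PHZ SP HSC replicate 1 it was -0.29, with 39 of 51. With the replicate number as a block the median was -0.03, with 27 of 51 below 0. That fit called 1 member, in the direction of higher levels, and 73 genes over all tested. The summed level of the 51 genes in PHZ SP HSCs was 89.2% of that in control BM HSCs, and the ranges overlapped. Both spleen libraries were below all 3 control libraries for 10 genes and above for 2, Rrm2 and Ccne1, against 13.7% and 15.2% of all genes. Intervals show how far the groups could differ: the difference was 0.04 for Gmnn (95% interval -0.56 to 0.63), -0.19 for Rrm1 (-0.66 to 0.28), -0.13 for Prim1 (-0.72 to 0.46), 0.00 for Pcna (-0.55 to 0.56) and -0.07 for Tipin (-0.85 to 0.71). The interval lay wholly below 0 for Gins3 (-1.28, -2.30 to -0.26), Gins4 (-0.62, -1.18 to -0.06), Mcm7 (-0.49, -0.89 to -0.10) and Rfc2 (-0.50, -0.99 to -0.01). It lay wholly above 0 for Rrm2 and Ccne1. Rrm2 had a difference of 0.83 (SE 0.31, limma adjusted p = 0.22). Ccne1 had 1.65 (0.90 to 2.40, limma adjusted p = 0.055), and its mean was 4.77-fold the control mean. Ccne1 is singled out because its values had been seen: without control BM HSC replicate 3, the control library with its highest level, it passed (adjusted p = 0.038).

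Taking the 3 groups in order of level, the PHZ BM mean was below both others for 46 of the 51 genes, against 29.8% of all genes tested. The PHZ SP mean lay between the other 2 for 33 genes, above both for 13 and below both for 5. By abundance, the median difference between PHZ BM and control BM HSCs was -0.75 for the 13 genes with a mean under 5 FPKM, -1.15 for 18 genes from 5 to under 15 FPKM and -0.75 for 20 genes at 15 FPKM and over, and the number that fell was 0, 8 and 7. Of all genes tested in the same 3 ranges, 0.846%, 1.55% and 1.85% fell, so that no call among 13 members under 5 FPKM is near the background. On average 34 of the 51 genes reached 10 FPKM in control BM HSCs, 20 in PHZ BM HSCs and 29 in PHZ SP HSCs.

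Other genes of the cell cycle, from lists set apart from the 51, were read in the same fit. Of 41 other replication genes, 11 fell and none rose in PHZ BM against control BM HSCs (median -0.52). The 2 with the smallest p were Ccna2, the S-phase cyclin A2, at 16.5 ± 3.77 FPKM (SD, n = 3) in control and 3.18 ± 2.20 FPKM in PHZ BM HSCs (-2.16, limma adjusted p = 0.0057), and the recombination factor Rad51ap1 (-1.94, limma adjusted p = 0.0061). Of 25 mitosis genes, 17 fell and none rose (median -1.66), with Ube2c, which helps to degrade mitotic cyclins, at 31.8 ± 11.9 FPKM and 4.11 ± 1.17 FPKM (-2.64, limma adjusted p = 0.0013), and the spindle protein Nusap1 (-2.51, limma adjusted p = 0.0019). In PHZ SP against PHZ BM HSCs, 8 of the mitosis genes and 1 of the other replication genes, Ccna2, rose. The summed level of the mitosis genes was 306.3, 215.1 and 423.9 FPKM in control BM HSCs, 45.7, 66.2 and 87.9 FPKM in PHZ BM HSCs and 226.4 and 277.3 FPKM in PHZ SP HSCs.

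The E2F and pocket protein family and the G1 genes gave no call. Of 16 E2F and pocket protein genes, none passed in PHZ BM against control BM HSCs in limma, 9 had p under 0.05 without adjustment, and the median was -0.60. The smallest p belonged to E2f6, a repressing E2F (-0.97, limma adjusted p = 0.061), and Tfdp1, the common partner of E2F factors (-0.78, limma adjusted p = 0.084). Of 10 G1 cyclins, CDKs and CDK inhibitors, none passed, 3 had p under 0.05 without adjustment, and the median was 0.05. Ccnd1 and Ccnd2, D cyclins that act in G1, had the smallest p (-1.10 and -0.71, limma adjusted p = 0.062 and 0.086).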

How the data were processed

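RNA of sorted mouse HSCs was purified, amplified with SMART-Seq2 and made into Nextera XT libraries. Per the labels, reads were mapped with STAR to mm10 and compared with DESeq2; the read counter, the annotation and the handling of strand are not given in the sources used here, so genes with processed pseudogenes or overlapping neighbours have uncertain levels. The authors deposited FPKM values in 1 table per group. The fold changes and p-values of 2 DESeq2 comparisons, deposited beside them, were not used. The FPKM tables did not share 1 set of scaling factors. The PHZ BM and PHZ SP tables matched factors taken over those 2 groups together (largest gap 0.000%). The control BM table matched factors taken over control BM and PHZ SP libraries (0.000%). Low values were whole multiples of the value of 1 read, and all 110442 values above 0 came within 0.001 of whole reads. For 1503 genes, none of them a member, reads are known only up to a common factor. Values were rescaled by 1 set of median-of-ratios factors over the 8 libraries (largest change 1.05%). Intervals are those of the fit and cover the spread between libraries.

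Main test: limma 3.58.1 (R 4.3.3; trend and robust empirical Bayes) on log2(FPKM + 1), with all 8 libraries in 1 fit by group, over the 11347 of 15142 genes with at least 1 FPKM in at least 2 libraries, two-sided, adjusted by Benjamini-Hochberg, threshold 0.05. The main test is on FPKM, the unit of the tables, and the recovered reads were used in an alternative. The script was first checked on data with known changes. Groups came from sample titles. The members and gene lists were chosen with earlier results of these data known. All 51 members could be named: per step, the 2 with the smallest p in PHZ BM versus control BM HSCs are given by library, as are members called in another comparison or above 0, and other lists are named by their 2 smallest p. Further values by library were chosen after they were seen. Alternatives were a pseudocount of 0.1, no filter, a mean of at least 3 FPKM, values as deposited, equal sums without Rn45s, voom on recovered reads, fits of 2 groups, a replicate block and leaving out each library. Promoter windows are from RefSeq. Python 3.11.15 was used for tables and figures.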

Additional observations from a re-analysis of the deposited data

How the results depend on the processing

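The number of members that fell in PHZ BM versus control BM HSCs (15) was 8 without the filter, 3 to 16 when 1 library was left out, and 3 with PHZ BM HSC replicates 1 and 2 averaged, an alternative added after seeing the data. Under the other 7 alternatives it was 12 to 18. The number that rose in PHZ SP versus PHZ BM HSCs (4) was 1 without the filter, 2 with voom, 0 to 7 when 1 library was left out and 1 with the 2 replicates averaged. In PHZ SP versus control BM HSCs (0) it was 0 to 1 when 1 library was left out. With the replicate number as a block, the numbers were 17, 12 and 1. Over all genes tested, deviations from the group mean correlated at -0.008 to 0.060 between same-numbered libraries and at -0.064 to 0.069 between others. With groups this small, these values cannot show whether same-numbered libraries share mice or a batch, which was not tested. Without the filter more genes enter the adjustment, and the cause of the other shifts was not tested. The median over the members ran from -1.11 to -0.73 in PHZ BM versus control BM HSCs, from 0.60 to 0.92 in PHZ SP versus PHZ BM HSCs and from -0.29 to -0.03 in PHZ SP versus control BM HSCs, where it was -0.03 with the block. Of the values for genes given by library under the rule for named genes, 726 kept their direction and side of the threshold, 104 lost the call, 25 gained it and 3 turned direction. The 3 are Ccne1 in PHZ BM versus control BM HSCs, which was never called: the difference ran from -0.20 to 0.25 when 1 library was left out (0.25 without control BM HSC replicate 3 and 0.14 when replicate 2 of PHZ BM HSCs was omitted) and was 0.038 with the 2 replicates averaged. Over all 51 members, 2, 6 and 26 turned direction under at least 1 alternative in PHZ BM versus control BM, PHZ SP versus PHZ BM and PHZ SP versus control BM HSCs, none of them in a comparison in which the gene was called. The 2 are Ccne1 and Pole. With 1 spleen library left out, the lone library is assumed to vary like the other groups. Depth limits the lowest members, of which Mcm10 had 3 reads in a library.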
